A study of Canis lupus familiaris with 28 samples.

Results

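The combined effect of losing p190A and p190B was examined in dog TR-T10 cells that had not reached full contact. The comparison used the 8 sub-confluent libraries of experiment 1, of 28 samples in the series, which were chosen by their labelled density and shRNAs and not by any measured value. There were 2 libraries in each of 4 groups. The first group was wild-type cells, the second carried an inducible shRNA against p190A, the third an inducible shRNA against p190B, and the fourth both shRNAs (the double knockdown). Per the labels' protocols, the shRNA lines were made with retrovirus and selected in hygromycin (p190A) or puromycin (p190B), and the double knockdown was made by adding the p190A virus to the p190B line. Doxycycline at 4 µg/ml for 3 days induced the shRNAs, and cells grew for another 3 to 5 days after replating. Doxycycline treatment of wild-type cells is not stated. Nothing in the labels says that replicates were separate cultures, and the p-values therefore reflect only the spread among these libraries, which may be technical. In bulk RNA, fewer cells of a kind and less RNA per cell cannot be told apart. The shRNA, the selection and the history of a line cannot be told apart in this design.

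p190A (encoded by ARHGAP35) and p190B (encoded by ARHGAP5) are related GTPase-activating proteins, which speed GTP hydrolysis by small GTPases and so turn them off. They are known for their part in the control of the actin cytoskeleton and cell adhesion. Because the p190 proteins share this activity, one may cover for the loss of the other. A double knockdown can then differ from what the single knockdowns predict. The comparison here asks how often that happened without full cell contact.

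The measure was the interaction term, the log2 level in the double knockdown minus that in the p190A line, minus that in the p190B line, plus that in wild type. A term of 0 means that the log2 differences of the single knockdowns from wild type add up to that of the double knockdown. A positive term places the double knockdown above this sum and a negative one below it. No reference table used here paired the transcript identifiers with gene names (0 of 29884 matched), so the levels of ARHGAP35 and ARHGAP5 could not be read, the line could not be checked against epithelial markers, and transcripts are named only by identifier. Transcripts are called at an adjusted p under 0.05 in edgeR's quasi-likelihood test, fitted to all 16 libraries of experiment 1. That fit does not pair libraries by replicate number.

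The 8 libraries held 12213169 to 17215544 reads assigned to single transcripts. Of all entries counted, 26.5% to 30.7% were alignments to several places and were not used. The replicates of the p190A line stood apart from each other, with a median absolute log2 difference between replicates of 0.284 against 0.172 in wild type, 0.158 in the p190B line and 0.215 in the double knockdown. The count of calls and the terms of the 4 transcripts described below are given with and without each p190A library.

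In sub-confluent cells the double knockdown departed from what the single knockdowns add up to for 1245 of 12845 transcripts tested, 9.69%. It was above the sum for 508 transcripts (3.95%) and below it for 737 (5.74%). The departure was at least 2-fold for 248 of the former and 356 of the latter. Of the 4 transcripts described below, ENSCAFT00000036275 was at 36.4 CPM (counts relative to each library's scaled total) or more in wild type and both single knockdowns. In the double knockdown it was at 0.587 CPM or less. This loss was not seen in the confluent cells of experiment 2. There it was at 54.6 to 61.1 CPM in the double knockdown and 28.6 to 30.6 CPM in wild type. For comparison, 1263 transcripts (9.83%) were called between the p190A line and wild type, 2316 (18%) between the p190B line and wild type, and 4467 (34.8%) between the double knockdown and wild type. These comparisons share the wild-type libraries with each other and with the interaction term. With a replicate block the p190A and p190B counts were 2225 and 3570. Without wild-type replicates 1 and 2 in turn the p190A count was 531 and 506 and the p190B count 1324 and 1108. The p190B count was also 1005 and 1283 without p190B replicates 1 and 2. The double knockdown count was 2881 with wild-type replicate 1 left out and 2751 with its own replicate 2 left out.

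The number of calls depended on the fit and on the libraries in it. With the replicate number as a block within each density, 2748 transcripts were called, 1286 above and 1462 below the sum. In a fit of the 8 sub-confluent libraries alone 240 were called, 92 above and 148 below, and 758 above and 842 below when that fit also had a replicate block. Leaving out p190A replicate 2 raised the count to 2931, and leaving out p190A replicate 1 lowered it to 604. With wild-type replicate 1 or 2 removed it was 698 or 510, with p190B replicate 1 or 2 removed 463 or 620, and 595 without double knockdown replicate 2. Without double knockdown replicate 1 it was 1521. A group with 1 library left was assumed to vary like the others. In each of these fits, and with DESeq2 and limma-voom, all 1245 terms kept their sign, while 128 of the 508 and 224 of the 737 stayed called in all 8 fits that left out a sub-confluent library.

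**Figure D1:**
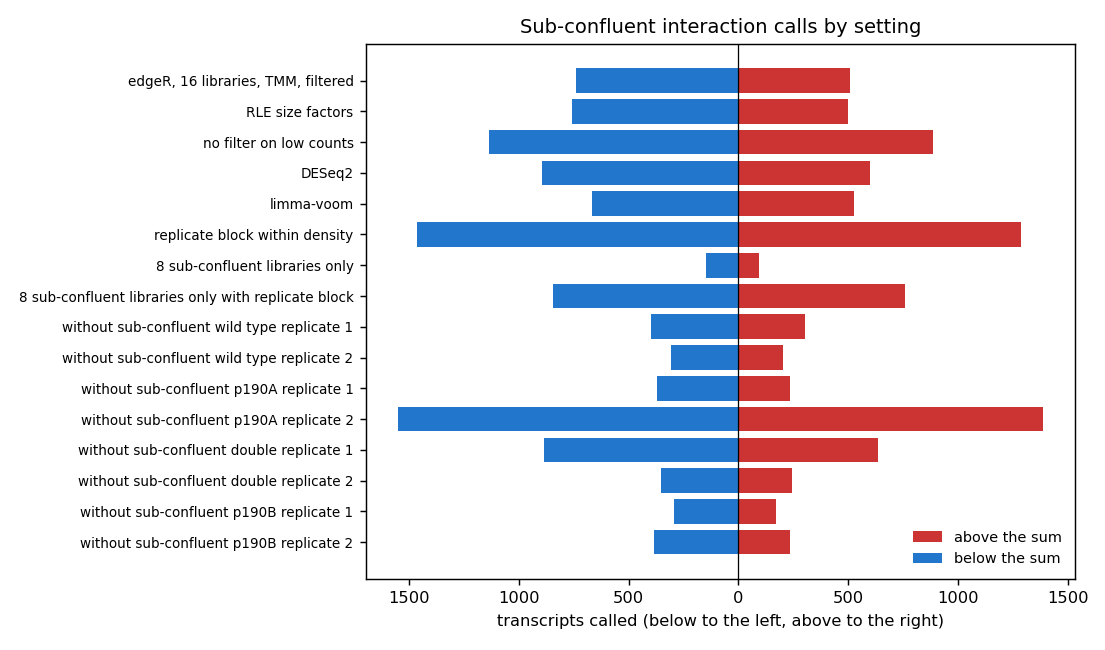
Number of transcripts called for the sub-confluent interaction (x axis), above the sum to the right and below it to the left, in the fit of 16 libraries with edgeR and under each other setting (y axis). The shortest bars are those of the fit of the 8 sub-confluent libraries alone (92 and 148), and the longest those without p190A replicate 2 (1384 and 1547).

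Precision followed abundance. The median standard error of the term was 0.262 on the log2 scale. With transcripts put in 4 equal bins from the lowest to the highest mean level, the median standard error went from 0.664 through 0.303 and 0.201 to 0.170, and the share called from 4.36% through 7.91% and 10.3% to 16.2%. The median absolute term of the called transcripts was 3.04 in the lowest bin and 0.78 in the highest. Terms computed from the replicate 1 libraries and from the replicate 2 libraries had a Pearson's r of 0.599 and a Spearman's coefficient of 0.569 across the 12845 transcripts, which are not independent.

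**Figure D2:**
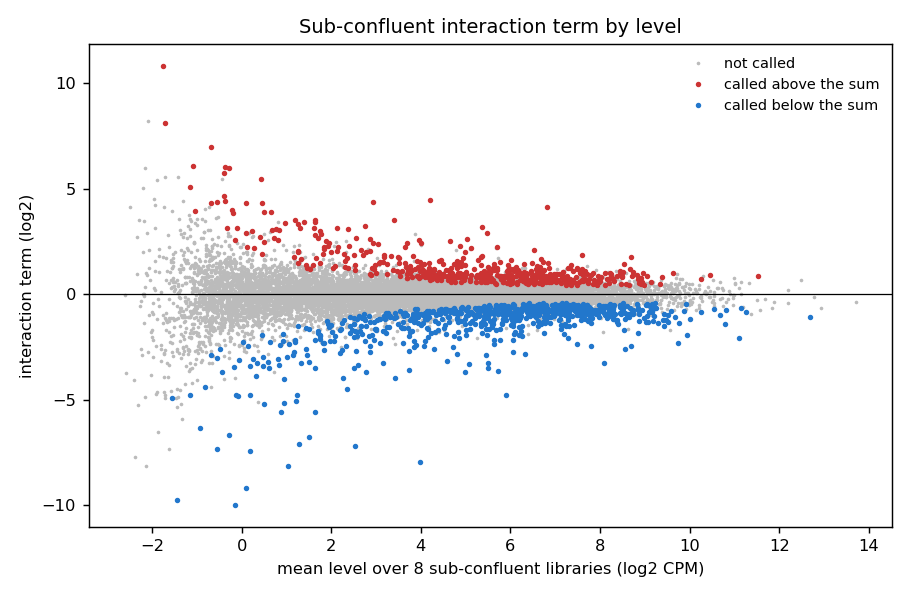
Interaction term in sub-confluent cells (y axis, log2) against the mean level over the 8 sub-confluent libraries (x axis, log2 CPM), 1 point a transcript. Called transcripts (508 above the sum in red, 737 below it in blue) have larger terms at low levels, where the spread of all points is wider.

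The text describes 4 transcripts with large terms in full, 2 in each direction. They had the largest absolute terms among called transcripts with a mean level of at least 3 log2 CPM and the same sign without any 1 library (413 eligible above and 613 below the sum). Library totals for CPM are those of transcript-assigned reads, scaled by TMM.

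Transcript ENSCAFT00000045668 was low in each single knockdown and back near the wild-type level in the double knockdown. In replicates 1 and 2 it was at 51.0 and 38.5 CPM in wild type, 5.91 and 12.2 in the p190A line, 5.27 and 11.6 in the p190B line, and 47.2 and 29.1 in the double knockdown. Both double knockdown libraries lay above all 4 single knockdown libraries, and they overlapped wild type. The log2 difference from wild type was -2.29 (SE 0.48, adjusted p = 8.4e-03) with the p190A shRNA, -2.41 (SE 0.49, adjusted p = 4.1e-03) with the p190B shRNA and -0.23 (SE 0.44, adjusted p = 7.3e-01) with both. The sum of the single differences predicts 1.71 CPM in the double knockdown, against the measured 38.2 ± 12.8 CPM (SD, n = 2). The interaction term was 4.47 (SE 0.68, adjusted p = 2.1e-03), and 4.05 and 5.10 without p190A replicates 1 and 2. Without p190B replicates 1 and 2 it was 4.01 and 5.14. Computed from the replicate 1 libraries alone it was 6.2, and from the replicate 2 libraries alone 2.96.

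Transcript ENSCAFT00000044360 rose in the double knockdown. It was at 104 and 130 CPM in wild type, 20.9 and 116 in the p190A line, 36.8 and 68.1 in the p190B line, and 598 and 501 in the double knockdown. Both double knockdown libraries lay above the other 6, and the p190A libraries were far apart, with only replicate 2 near wild type. The log2 difference from wild type was 2.23 (SE 0.49, adjusted p = 3.2e-03) for the double knockdown. For the single knockdowns it was -0.77 (SE 0.48, adjusted p = 3.8e-01, p190A) and -1.16 (SE 0.49, adjusted p = 1.2e-01, p190B). The interaction term of 4.16 (SE 0.70, adjusted p = 3.5e-03) became 3.41 without p190A replicate 1 and 5.88 without p190A replicate 2. The term was 6.32 from the replicate 1 libraries alone and 3.04 from the replicate 2 libraries alone. It was not called in the fit of the 8 sub-confluent libraries, without or with a replicate block (adjusted p = 0.066 and 0.092, the highest over its alternatives). The lowest was 3.7e-90 without the filter on low counts. The estimate of the spread in that unfiltered fit was not checked, and its adjusted p-values are not relied on.

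Transcript ENSCAFT00000036275 was nearly absent from the double knockdown of experiment 1 and present everywhere else. It was at 39.7 and 36.4 CPM in wild type, 56.9 and 37.1 in the p190A line, 83.7 and 62.8 in the p190B line, and 0.587 and 0.176 in the double knockdown, the last from 8 and 3 counts. The p190B line was higher than wild type by 0.95 on the log2 scale (SE 0.20, adjusted p = 4.8e-03), and the p190A difference was 0.30 (SE 0.20, adjusted p = 4.0e-01). Summed over replicates, the wild-type level was 106 times that of the double knockdown (95% exact interval 58.9 to 213, for counting error only). The interaction term was -7.94 (SE 0.41, adjusted p = 2.6e-07), and -7.60 and -8.21 with p190A replicate 1 or 2 left out.

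Transcript ENSCAFT00000014635 was lower in the p190B line than in wild type, and much lower still in the double knockdown. It was at 282 and 192 CPM in wild type, 340 and 163 in the p190A line, 74.3 and 76.3 in the p190B line, and 3.67 and 2.35 in the double knockdown. The p190A libraries spanned the wild-type ones, the p190B libraries lay below both groups, and the double knockdown lay below all. The log2 differences from wild type were 0.09 (SE 0.29, adjusted p = 9.0e-01, p190A), -1.65 (SE 0.30, adjusted p = 1.9e-03, p190B) and -6.32 (SE 0.40, adjusted p = 2.0e-07, both). The sum of the single differences predicts 80.0 CPM, and the measured level was 3.01 ± 0.937 CPM (SD, n = 2). The interaction term was -4.75 (SE 0.49, adjusted p = 2.1e-04). Leaving out p190A replicate 1 or 2 gave -4.13 or -5.19.

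**Figure D3:**
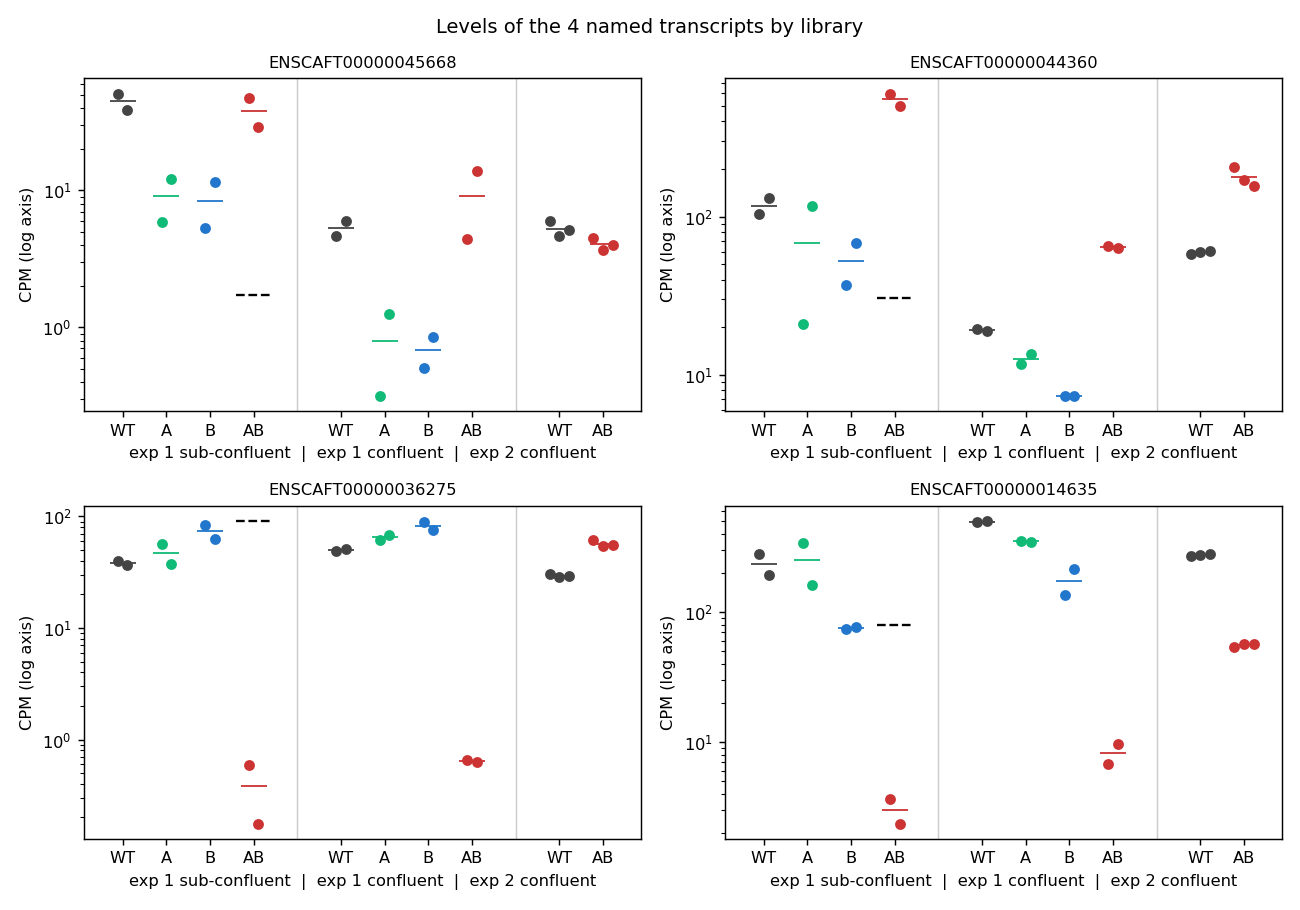
CPM (y axis, log scale) of the 4 transcripts in every library of wild type (WT), p190A (A), p190B (B) and double knockdown (AB) cells, for sub-confluent and confluent cells of experiment 1 and confluent cells of experiment 2; points are libraries, short lines group means, and the dashed line the sub-confluent AB level that the sum of the single knockdowns predicts. The double knockdown points of ENSCAFT00000036275 lie under 1 CPM in experiment 1 at both densities and between 54.6 and 61.1 CPM in experiment 2.

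In both sets of called transcripts the medians of the single knockdowns lay on one side of wild type and the median of the double knockdown on the other. The 508 transcripts above the sum had median log2 differences from wild type of -0.12 with the p190A shRNA and -0.49 with the p190B shRNA, a median sum of -0.62, and a median of 0.35 in the double knockdown. The 737 below the sum had medians of 0.20, 0.43, 0.64 and -0.36 for the same quantities. Over all tested transcripts each of these medians was between 0 and 0.03. The median term was 0.99 (quartiles 0.76 and 1.46) above the sum and -0.97 (quartiles -1.52 and -0.72) below it. These medians share libraries with the term that chose the transcripts and are given as a description only.

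In 266 of the 508 transcripts above the sum, both double knockdown libraries lay above the other 6 sub-confluent libraries, and in 403 of the 737 below the sum they lay below the other 6. Over all tested transcripts this held for 14.3% (above) and 14.7% (below). In 4 transcripts above the sum they lay below the other 6, and in 7 below the sum they lay above them. A sum on the log2 scale is a product of fold changes on the linear scale. When the departure was computed on linear CPM instead, 504 of the 508 stayed above and 734 of the 737 stayed below. The double knockdown libraries are part of the term that chose these transcripts. All counts in this paragraph are therefore a description only and not a test.

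The same term was then computed from the 8 confluent libraries of experiment 1, which share no library with the sub-confluent ones but come from the same lines. Both terms were tested in the fit of 16 libraries, with a shared estimate of the spread. The difference between the densities was tested directly. edgeR called 0 of 12845 transcripts (0%) for a difference in the interaction term, and 655 had an unadjusted p under 0.05, 5.10% of those tested. With a replicate block within density edgeR called 5, all with a more negative term in sub-confluent cells, and 1172 had an unadjusted p under 0.05. DESeq2 called 13 (12 more negative) and limma-voom 4 (4 more negative). With unfiltered counts 116 were called, 100 of them more negative, in a fit whose estimate of the spread was not checked. Leaving out p190A replicate 2, double knockdown replicate 1 or double knockdown replicate 2 of the sub-confluent cells gave 9, 16 and 4. The median standard error of the difference was 0.373. A difference that misses the threshold at this precision does not show that the terms were alike.

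At confluence 653 transcripts were above the sum (5.08%) and 640 below it (4.98%). Followed in sub-confluent cells, the 653 had a median term of 0.61 (quartiles 0.37 and 0.99), with 626 positive terms, 225 called above and 1 called below the sum. The 640 had a median term of -0.82 (quartiles -1.28 and -0.53), with 15 positive terms, 359 called below and 0 called above. All tested transcripts had a median of -0.02, and 6224 of 12845 had a positive term. Of all tested, 3.95% were called above and 5.74% below the sum in sub-confluent cells. Without 1 library in turn the medians ran from 0.51 to 0.78 and from -0.95 to -0.64, with both extremes set by the p190A libraries. Of the transcripts called in sub-confluent cells, the shared ones were 44.3% of those above and 48.7% of those below the sum. Of those called at confluence they were 34.5% and 56.1%. Because the fit shared its estimate of the spread, calls at both densities are not independent. Across the 12845 transcripts the sub-confluent and confluent terms had a Pearson's r of 0.667 and a Spearman's coefficient of 0.627.

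**Figure D4:**
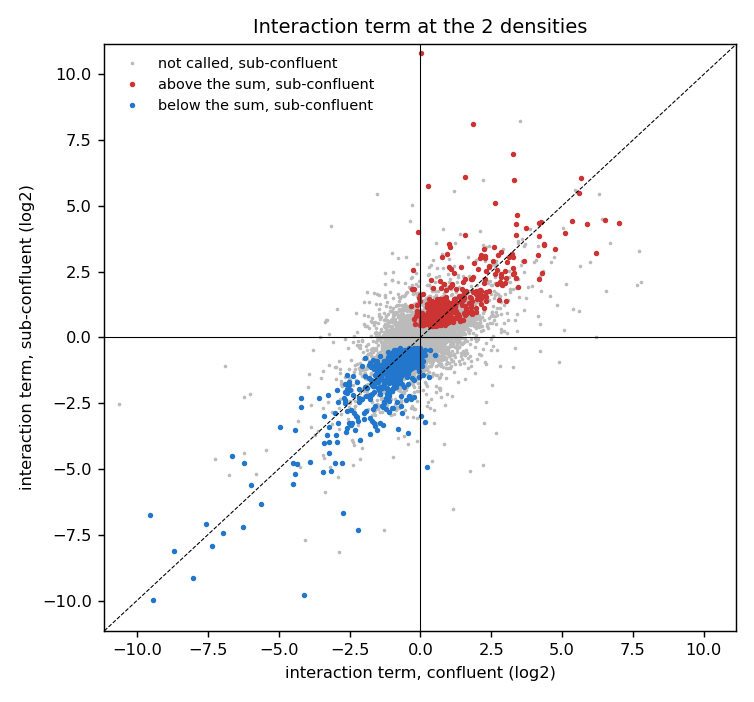
Interaction term in sub-confluent (y axis) against confluent cells (x axis), both log2, 1 point a transcript, with sub-confluent calls in colour and the line of equal terms dashed. Red points (above the sum) lie mostly at the upper right and blue points (below it) at the lower left.

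The 4 transcripts named above departed in the same direction at confluence. The confluent term of ENSCAFT00000045668 was 6.51 (SE 1.05, adjusted p = 1.7e-03), and its level was lower at confluence in wild type, at 4.65 and 5.94 CPM. That term rests on 4 and 15 counts in the confluent p190A libraries and 6 and 11 in the p190B ones. The confluent double knockdown libraries were far apart, at 4.45 and 13.8 CPM. For ENSCAFT00000044360 the confluent term was 3.72 (SE 0.80, adjusted p = 9.9e-03). ENSCAFT00000036275 had -7.34 (SE 0.38) and ENSCAFT00000014635 -3.90 (SE 0.45, adjusted p = 2.3e-04). Their terms did not pass the test of a difference between densities, and the differences were -2.04 (SE 1.32), 0.44 (SE 1.05), -0.60 (SE 0.71) and -0.85 (SE 0.66) in the order named.

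Lists chosen by the calls of the single knockdowns at confluence were then followed in sub-confluent cells. Calls at both densities again share an estimate of the spread. The 369 transcripts raised by both single knockdowns at confluence (2.87% of those tested) had sub-confluent medians of 0.53 with the p190A shRNA and 0.52 with the p190B shRNA. Their median sum was 1.08, and the double knockdown had a median of 0.65, close to either single one. The median term was -0.47 (quartiles -0.81 and -0.18). Of these transcripts 131 were called below the sum and 2 above, against 5.74% and 3.95% of all tested. No left-out library moved this median beyond -0.45 to -0.49.

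The 270 transcripts lowered by both single knockdowns at confluence (2.1%) had a lower median with both shRNAs than with either. Their sub-confluent medians were -1.06 (p190A), -1.08 (p190B) and -1.87 (both), against a median sum of -2.30. The median term was 0.53 (quartiles -0.05 and 1.48), with 59 called above (21.9%) and 7 below the sum (2.59%), against 3.95% and 5.74% of all tested. It ranged from 0.32 to 0.67 without double knockdown replicates 1 and 2 in turn. The 55 transcripts called in opposite directions by the single knockdowns at confluence (0.428%) had a median sum of -0.30, a double knockdown median of -0.34 and a median term of -0.12, which was -0.23 without double knockdown replicate 1 and -0.18 without p190A replicate 2. Of these, 4 were called above (7.27%) and 10 below the sum (18.2%), against the same 3.95% and 5.74%.

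The largest lists held transcripts called in the double knockdown and in neither single one at confluence. There, 1847 transcripts (14.4%) were raised by the double knockdown and called in neither single one, and 1787 (13.9%) were lowered. In sub-confluent cells the raised list had medians of 0.12 (p190A), -0.05 (p190B) and 0.38 (both) and a median term of 0.32, with 1498 positive terms, 196 called above (10.6%) and 7 below the sum (0.379%). The lowered list had medians of -0.09, -0.02 and -0.50 and a median term of -0.41, with 325 positive terms, 228 called below (12.8%) and 4 above (0.224%). Of all 12845 tested, 6224 had positive terms, 3.95% were called above and 5.74% below. These medians moved most without a p190A or a double knockdown library. Without p190A replicates 1 and 2 in turn the raised list had 0.20 and 0.48, and the lowered list -0.22 and -0.54. Without double knockdown replicates 1 and 2 the raised list had 0.41 and 0.22, and the lowered list -0.54 and -0.31.

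**Figure D5:**
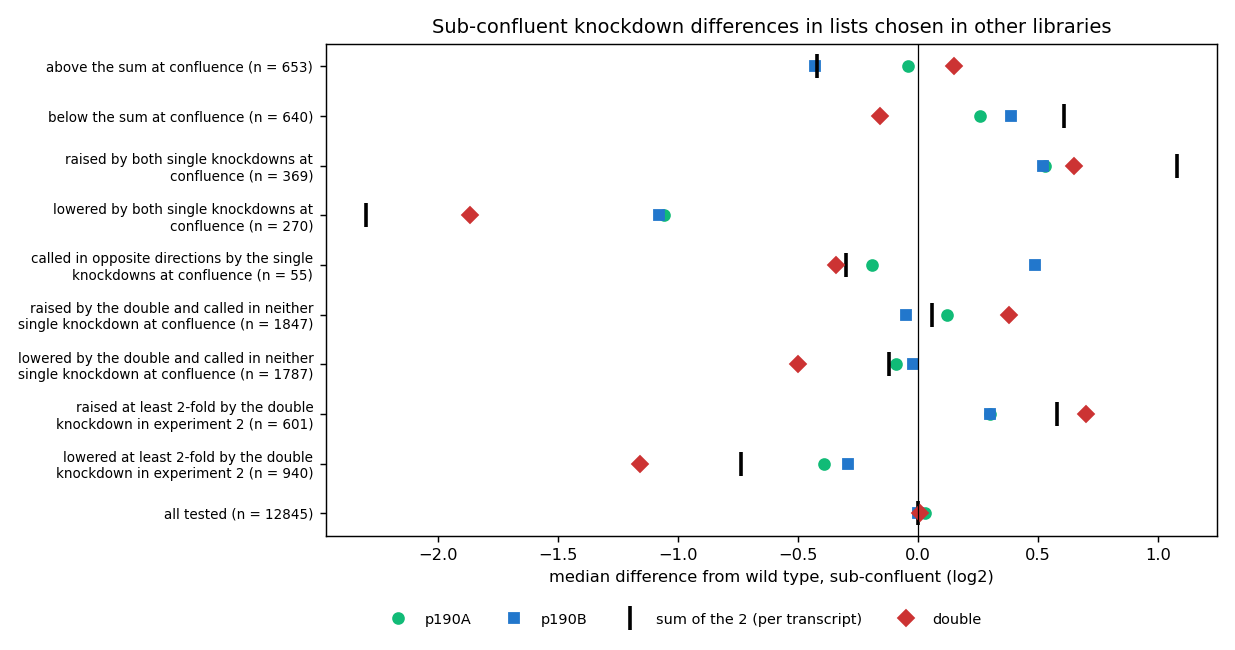
Median sub-confluent log2 difference from wild type (x axis) with the p190A shRNA (circles), the p190B shRNA (squares) and both (diamonds), and the median sum of the single differences (bars), for lists chosen in confluent or experiment 2 libraries and for all tested transcripts (y axis). In the list raised by both single knockdowns the diamond (0.65) lies near the single ones and short of the bar (1.08), and in the lists called in the double knockdown and in neither single one it lies beyond the bar.

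Experiment 2, which held confluent wild-type and double knockdown cells with 3 libraries each and no single knockdowns, gave lists from other libraries. Also in its fit, but not in the comparison, were double knockdown cells with YAP5SA+S94A and cells labelled YAP5SA. Experiment 2 called 35.2% of transcripts higher and 35.1% lower in the double knockdown than in wild type, with a change of 2-fold or more for 636 (4.87%) of the higher and 1102 (8.44%) of the lower ones. Of these, 601 and 940 were tested in experiment 1. The 601 had sub-confluent medians of 0.30, 0.30 and 0.70 with the p190A shRNA, the p190B shRNA and both, and a median sum of 0.58. Their median term of 0.10 (quartiles -0.47 and 0.67) was 0.01 and 0.25 without p190A replicates 1 and 2, 0.06 with wild-type replicate 2 left out and 0.05 with double knockdown replicate 2 left out, and 43 were called above (7.15%) and 57 below the sum (9.48%), against 3.95% and 5.74% of all tested. The 940 had medians of -0.39, -0.29 and -1.16, a median sum of -0.74 and a median term of -0.39 (quartiles -1.09 and 0.33), with 116 called below (12.3%) and 43 above (4.57%). This median was -0.10 without p190A replicate 1, -0.60 without p190A replicate 2, and -0.65 and -0.23 without double knockdown replicates 1 and 2. Positive terms numbered 336 of the 601 and 339 of the 940, against 6224 of 12845 over all tested.

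Whether the double knockdown itself had the same effect in experiment 2 was asked for the transcripts called in sub-confluent cells, a comparison added after the data had been seen. Of the 504 transcripts above the sum that experiment 2 tested, 301 were higher and 118 lower in its double knockdown, with a median log2 difference of 0.26. Of the 730 below the sum, 380 were lower and 226 higher (median -0.16). Among all 12552 transcripts tested in both experiments, that double knockdown raised 4534 and lowered 4392 (median 0.01). The labels do not tie the double knockdown cells of the experiments to 1 line, so differences between experiments and between lines cannot be told apart. The effects of the double knockdown at confluence were then compared between the experiments in a fit of 10 libraries. Of 12995 transcripts, 17.5% had a higher effect in experiment 1 and 18% a lower one. Of the 503 transcripts above the sum in this fit, 34.8% had a higher effect in experiment 1 and 20.3% a lower one, and of the 732 below the sum 23.4% had a higher and 37.3% a lower one. Among the 351 tested transcripts at least 2-fold below the sum, 43.3% had a more negative effect in experiment 1 and 18.8% a more positive one. Among the 243 at least 2-fold above the sum, 30.5% had a more positive effect in experiment 1 and 25.1% a more negative one.

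In that fit ENSCAFT00000036275 fell by 6.28 on the log2 scale in the confluent double knockdown of experiment 1, while in experiment 2 it was at 28.6 to 30.6 CPM in wild type and 54.6 to 61.1 CPM in the double knockdown, a log2 difference of 0.94. The effects differed by -7.23 (SE 0.17, adjusted p = 5.8e-14). ENSCAFT00000014635 had log2 effects of -5.91 and -2.32 in experiments 1 and 2, a difference of -3.59 (SE 0.12, adjusted p = 3.5e-12). Its experiment 2 levels were 273 to 282 CPM in wild type and 53.9 to 56.9 CPM in the double knockdown. ENSCAFT00000044360 had log2 effects of 1.73 and 1.58 (difference 0.15, SE 0.14, adjusted p = 4.5e-01). The effects on ENSCAFT00000045668 were 0.82 and -0.37 (difference 1.19, SE 0.60, adjusted p = 1.7e-01). That difference was called by DESeq2 (adjusted p = 0.048) and by edgeR with unfiltered counts (adjusted p = 3.2e-05, spread not checked). It was not called with RLE scaling (adjusted p = 0.17) or limma-voom (adjusted p = 0.16). Without the confluent double knockdown replicates 1 and 2 of experiment 1 in turn it was 1.74 and 0.09. Experiment 2 held no single knockdowns, so its interaction term could not be computed.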

How the data were processed

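Messenger RNA of TR-T10 cells was sequenced as single reads from polyA-selected TruSeq libraries, made from RNA with an integrity number above 9.5, per the labels' protocols. The authors deposited whole-number read counts per Ensembl dog transcript, not normalized. The build CanFam3.1 and the tools HTSeq 0.6.0, STAR 2.3.1n and DESeq2 1.4.5 are listed, without roles, per the submitters' processing notes. Reads overlapping several transcripts (21.2% to 23.1% of uniquely aligned reads in the 8 libraries) or outside any (21.2% to 22.0%) had separate totals in the files, which were left out. Use of strand is not stated.

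The 16 libraries of experiment 1 were fitted with 8 group means in edgeR 4.0.16 (R 4.3.3) with filterByExpr, TMM and robust quasi-likelihood F-tests, and Benjamini-Hochberg adjustment over 12845 transcripts. Log2 CPM used a prior count of 2. SEs were derived from F. The scripts were tested on simulated data. Experiment 2 was fitted alone (11 distinct libraries, since 2 of its files were identical, and 13061 transcripts), and the 10 libraries of confluent wild type and double knockdown together. Same-numbered sub-confluent libraries deviated together in all pairs of groups (r across transcripts 0.142 to 0.366, over the 0.1 required), so the numbers were taken to pair them. Alternatives were RLE scaling, no filter, DESeq2 1.42.0, limma-voom 3.58.1, a replicate block, fewer libraries and each library left out. The comparison, lists and rule for named transcripts (the first 2 in each direction by absolute term) were chosen with earlier results of these data known. Gene lists by symbol were not run, since no identifier matched.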

Additional observations from a re-analysis of the deposited data

Results flagged for a closer look

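The effect of the double knockdown at confluence on ENSCAFT00000036275 differed between experiments 1 and 2 by -7.23 on the log2 scale, with a range of -7.26 to -7.17 without each of the 10 libraries in turn. For ENSCAFT00000014635 the difference was -3.59, with a range of -3.90 to -3.38. Both were tested as a difference of effects. Reads aligned to several places, which the comparisons do not use, made up 28.94% and 30.7% of counted entries in the sub-confluent double knockdown libraries, against 28.56% and 28.92% in wild type, 26.48% and 28.89% in the p190A line, and 26.69% and 27.42% in the p190B line. Both double knockdown libraries were above the other 6, the lower one narrowly, with no test made.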

How the results depend on the processing

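The 1245 interaction calls numbered 2018 with no filter on low counts, 2748 with a replicate block within density and 240 in the fit of the 8 sub-confluent libraries. They became 365 at adjusted p under 0.01 and 604 with a 2-fold minimum, both stricter by construction. Leaving out 1 library gave 463 to 2931. RLE scaling (1256), DESeq2 (1494), limma-voom (1189) and the fit of 8 libraries with a replicate block (1600) stayed within 1.5 times. The cause was not tested. In the fit with no filter, the adjusted p of the named transcripts ran from 1e-133 to 1.3e-50. The estimate of the spread in that fit was not checked. The difference between densities, with 0 calls, had 116 without the filter, 13 with DESeq2, 4 with limma-voom, 5 with the block, and 0 to 16 without 1 library. Against wild type, the p190A count of 1263 became 2225 with the block, 498 in the fit of 8 libraries and 506 to 1380 without 1 library. The p190B count of 2316 became 3570, 1342 and 1005 to 1324. The double knockdown count of 4467 became 2751 to 4147 without 1 library. The block changed the call of no named transcript in the fit of 16 libraries.

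No median of a list changed sign under any alternative run. Without 1 library in turn, the median term was 0.51 to 0.78 (above the sum at confluence), -0.95 to -0.64 (below it), 0.32 to 0.67 (lowered by both single knockdowns), -0.23 to -0.09 (opposite directions), 0.20 to 0.48 and -0.54 to -0.22 (raised and lowered by the double knockdown only), and 0.01 to 0.25 and -0.65 to -0.10 (raised and lowered in experiment 2). Standard errors were largest for the least abundant transcripts (median 0.664), and the part of depth in this was not tested.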
